A study of Mus musculus with 6 samples.

Results

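Transcript levels in muscle of MDX mice that drank JJ101, which the labels describe as a bioceramic water, were compared with those in MDX mice that drank tap water. Both groups carried the MDX strain label, both had their water for 10 months, and the labels give the tissue as gastrocnemius. Each group had 2 arrays, named MDX_JJ101 and MDX_tap below. These are 4 of the 6 arrays of the series, and were chosen by those labels alone. The other 2 arrays are from C57BL/10 mice on tap water (B10_tap), the background strain of MDX, and serve here as a reference level. They also enter the model behind the p-values, where they add to its estimate of spread, and the filter that chose the probes. The labels number the replicates without saying that they came from separate mice, so p-values measure the spread between these arrays, which may be technical. They also do not say whether animals were pooled, or give the age and sex of the mice.

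MDX mice carry a nonsense mutation in Dmd and lack full-length dystrophin, the protein that ties the actin cytoskeleton to the membrane complex of dystroglycan and sarcoglycans. In its absence muscle fibres tear when they contract. The damage brings macrophages, lymphocytes and fibroblasts into the tissue, and matrix accumulates over time, in limb muscle, diaphragm and heart alike. Muscle also responds to hormones and food. Glucocorticoids act through a nuclear receptor on genes such as Fkbp5, Klf15 and Zbtb16, shortage of amino acids acts through the factor ATF4, and a clock of activators and repressors drives a daily cycle of metabolic genes.

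Levels are given as log2 signal after subtraction of the 75th percentile of the array, so a level of 0 is that percentile and a difference of 1 between groups is a 2-fold change. Differences are MDX_JJ101 minus MDX_tap, and where 2 pairs of levels are joined by "against", the first pair is that of MDX_tap, replicates 1 and 2. Adjusted p-values are those of limma after Benjamini-Hochberg adjustment over 20869 genes and transcripts, and a gene passed the test at an adjusted p under 0.05. Of these, 7529 passed (36.1%), 4160 as higher in MDX_JJ101 (19.9%) and 3369 as lower (16.1%). The 2 arrays of one group lay apart from the 2 of the other in 15170 of the 20866 that had values on all 4 arrays (72.7%). These shares are the background for every count below, though they changed with the level of the gene, as the next paragraph gives. With 2 arrays against 2, an exact permutation test of a single gene cannot go below p = 0.333, so the calls rest on the spread that limma pools over genes.

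The arrays of both groups differed in more than single genes. The share of spots well above background was 49.6% and 48.1% on the MDX_tap arrays and 43.8% and 42.5% on the MDX_JJ101 arrays. The MDX_JJ101 arrays also shared a row of the slide that held none of the other 4 arrays, so slide row and JJ101 cannot be told apart. The direction of the calls went with the level of the gene. With genes cut into 4 equal bins by level, the dimmest bin had a median difference of -0.38 with 229 higher (4.4%) and 1281 lower (24.6%). The brightest bin had 0.23 with 1860 higher (35.7%) and 501 lower (9.6%). Of the 7529 calls, 862 were genes well above background in MDX_tap and on neither MDX_JJ101 array, and a further 114 were above it on no array of either group. Quantile normalization narrowed the gradient to medians of -0.22 and 0.036. The 7 spike-in RNA probes were brighter by 0.325 in MDX_JJ101, and scaling to them moved the median of all genes from 0.00086 to -0.43 and left 81 genes higher and 3702 lower. In that fit limma also gave every gene the same spread (infinite prior degrees of freedom, 2.21 in the main fit). Calls with spike-in scaling therefore mix the shift of the median with a change of test. Median centring gave 5692 higher and 1898 lower. Directions below are therefore relative to the bulk of the genes, and a list median is called after the 75th percentile scaling unless another is named. Median centring and spike-in scaling move the medians of all gene lists by 1 shared amount each, so neither can change their order. With the slide column as a block 0 genes passed in limma, 8857 having an unadjusted p under 0.05. Arrays of the same replicate number in MDX_tap and MDX_JJ101 lay in the same slide column. Without MDX_tap replicate 2, 48 genes passed in place of 7529. Of the genes named below with a call, Myh4 at -6.37 and Skint1 at 3.38 were the only ones still past the threshold without that array. In each of the 2 genes, 1 group was not well above background, so the size is uncertain. None changed direction, but where the 2 groups do not overlap, leaving out 1 array cannot change it.

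**Figure D1:**
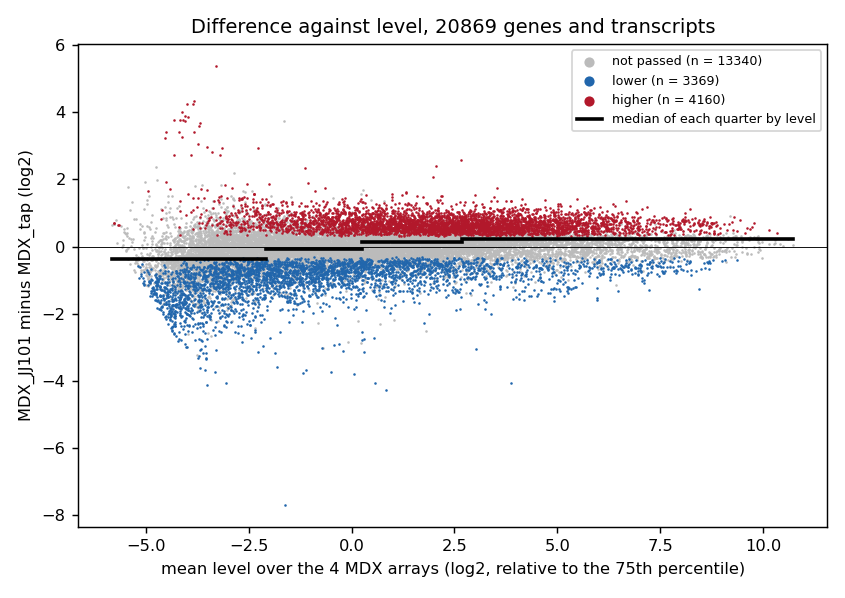
Difference between MDX_JJ101 and MDX_tap (log2, vertical axis) against the mean level over the 4 MDX arrays (log2 relative to the 75th percentile, horizontal axis), one point per gene or transcript. Red points passed as higher (4160) and blue as lower (3369). The black lines are the medians of 4 equal bins by level, which run from -0.38 in the dimmest to 0.23 in the brightest.

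The label gastrocnemius was set against markers of heart and of limb muscle. Genes of heart muscle were well above background on all 4 arrays. Nkx2-5, a transcription factor gene of the heart lineage, stood at 3.55 and 3.6 in MDX_tap and 4.47 and 4.61 in MDX_JJ101, and the alpha cardiac myosin gene Myh6 at 10.17 and 10.3 against 10.28 and 10.32. All 8 members of the heart contractile list, from Myh6 to the cardiac troponin gene Tnni3, were well above background on every one of the 4. Of 20 markers of limb muscle and fast fibres, 8 were left out as dim, among them Myod1, Myog, Myf5, Musk, Chrna1, Chrnd and Mylpf. These include the master regulators of skeletal muscle fate and subunits of the receptor at the nerve-muscle junction. Among the other 12, fast-fibre genes exceeded background on each array from mice given tap water: Myh4 stood at 0.91 and 3.53 in MDX_tap and 2.62 and 2.28 in B10_tap, and Tnnc2 at 1.31 and 3.88 and 3.14 and 2.62. Markers of heart and of fast skeletal fibres were thus both present there, but not at like levels. In MDX_tap the median level was 9.96 over the heart contractile list and -1.45 over the 12 tested limb and fast-fibre genes. The heart signal goes against the tissue label. Which tissue was sampled was not tested, and it is called muscle below, not gastrocnemius.

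The genes with the highest differences included genes that respond to hormones and nutrients. Zbtb16, a transcription factor gene that glucocorticoids induce, stood at 1.13 and 1.61 in MDX_tap and 3.47 and 4.4 in MDX_JJ101, a difference of 2.56 (SE 0.39, adjusted p = 0.0139). Arrdc2, an arrestin-domain gene, stood at 0.62 and 1.1 against 2.97 and 3.53, a difference of 2.39 (SE 0.25, adjusted p = 0.0128). In both genes the MDX_JJ101 arrays also lay above the B10_tap arrays, which stood at 1.41 and 2.08 for Zbtb16 and 0.89 and 0.92 for Arrdc2. Chac1, which encodes an enzyme that degrades glutathione and is a target of ATF4, stood at 0.66 and 1.24 against 2.82 and 3.21, a difference of 2.07 (SE 0.26, adjusted p = 0.0128).

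The other genes among the 12 with the highest differences were of several kinds. Grin2c, a glutamate receptor subunit gene, had a difference of 1.9 (SE 0.27, adjusted p = 0.013) and Hif3a, a hypoxia-inducible factor gene, one of 1.86 (SE 0.32, adjusted p = 0.016). Nrap, which encodes a protein of the myofibril ends at the cell junction, stood at 2.88 and 2.43 in MDX_tap and 4.14 and 4.66 in MDX_JJ101, a difference of 1.74 (SE 0.23, adjusted p = 0.0129). Both MDX_JJ101 arrays were above every other array of the series for Nrap. Kcnj4, an inward rectifier potassium channel gene, had 1.64, the scaffold gene Cnksr1 1.74, Proser2 1.58, Rufy4 1.57 and the clock gene Ciart 1.57. Each of the named genes of this group was still past the threshold with spike-in scaling, where they ran from 1.14 to 2.13 and all genes shared 1 spread.

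**Figure D2:**
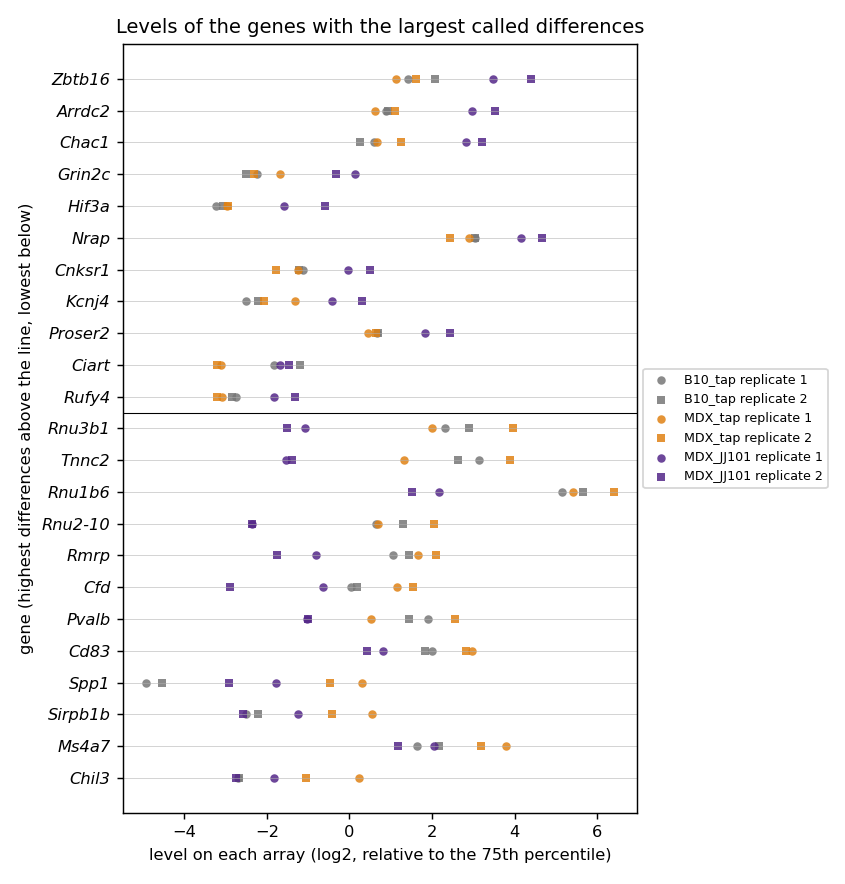
Level of each gene on each of the 6 arrays (log2 relative to the 75th percentile, horizontal axis) for genes among the 12 highest differences (above the line; 1 of the 12 is not drawn) and the 12 lowest (below it). Genes were drawn only from those whose MDX_JJ101 arrays lay apart from the MDX_tap arrays, so that separation was fixed by the choice. For Ciart the MDX_JJ101 points lie among the B10_tap points, and for Zbtb16 and Arrdc2 above them.

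A list of glucocorticoid targets held 20 genes, among them Zbtb16, Arrdc2 and Hif3a. Of the 20, 8 passed as higher and 2 as lower, with a median difference of 0.52, or 0.081 with spike-in scaling. The list's median level in MDX_tap, 3.4, lay in the range of the brightest bin, where 35.7% of all genes passed as higher. The metallothionein gene Mt1 stood at 7.69 and 7.66 in MDX_tap and 8.55 and 9.02 in MDX_JJ101, a difference of 1.11 (SE 0.22, adjusted p = 0.0198). Its paralog Mt2 had 1.27 (SE 0.31, adjusted p = 0.0324). The pair are close paralogs, and how far their probes tell them apart was not tested. Klf15, a regulator of amino acid breakdown, stood at 0.64 and 0.9 against 1.67 and 1.93, a difference of 1.03 (SE 0.15, adjusted p = 0.0137). Fkbp5, a co-chaperone of the receptor, stood at 1.7 and 2.13 against 2.74 and 3.07, a difference of 0.99 (SE 0.2, adjusted p = 0.0209), against 0.79 and 0.99 in B10_tap. The transcription factor gene Klf9 rose with 0.49 (SE 0.11, adjusted p = 0.0283). Other classical targets moved the other way or did not pass. Errfi1, a feedback inhibitor of growth factor receptors, fell from 4.55 and 4.42 to 3.29 and 3.6, a difference of -1.04 (SE 0.14, adjusted p = 0.0129). The kinase gene Sgk1 had -0.56 (SE 0.16, adjusted p = 0.0463), the GILZ gene Tsc22d3 -0.21 (SE 0.14, adjusted p = 0.265), and the clock gene Per1, which the hormone also induces, 0.11 (SE 0.19, adjusted p = 0.673).

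The ATF4 list held 18 tested genes, of which 6 passed as higher and 1 as lower, with a median of 0.41 that turned to -0.019 with spike-in scaling. After Chac1 came Mthfd2, a mitochondrial enzyme of folate metabolism, at -0.72 and -1.13 in MDX_tap and 0.78 and -0.11 in MDX_JJ101, a difference of 1.26 (SE 0.32, adjusted p = 0.0354), or 0.81 without MDX_JJ101 replicate 1. Shmt2, which feeds the same pathway from serine, stood at 1.27 and 1.42 against 2.28 and 2.53, a difference of 1.06 (SE 0.13, adjusted p = 0.0128). The secreted glycoprotein gene Stc2 had 0.76 (SE 0.13, adjusted p = 0.0149) and the transcription factor gene Atf5 0.7 (SE 0.15, adjusted p = 0.0239). Atf4 itself, whose protein is controlled mainly by translation, stood at 6.05 and 5.94 against 6.28 and 6.19, a difference of 0.24 (SE 0.11, adjusted p = 0.151). Nupr1, a stress-responsive chromatin protein gene, fell with -0.75 (SE 0.21, adjusted p = 0.047), or -0.44 without MDX_JJ101 replicate 2. Chac1, the highest of the list, and Nupr1, the lowest with a call, both carry an ATF4 element (TGATGCAA or its reverse complement TTGCATCA) before the gene start. The 250 bases before the start are shown for this pair from RefSeq on GRCm38.p6, 5′ to 3′ on the strand of the gene, with the element in capitals. Chac1 lies at chr2:119350992-119351241 on the plus strand with the element starting at -193, and Nupr1 at chr7:126625471-126625720 on the minus strand with it at -110.
Chac1: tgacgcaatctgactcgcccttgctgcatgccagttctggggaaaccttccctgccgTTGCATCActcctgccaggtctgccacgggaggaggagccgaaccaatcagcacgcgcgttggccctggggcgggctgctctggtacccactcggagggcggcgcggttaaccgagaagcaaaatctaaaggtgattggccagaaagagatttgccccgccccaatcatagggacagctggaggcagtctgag
Nupr1: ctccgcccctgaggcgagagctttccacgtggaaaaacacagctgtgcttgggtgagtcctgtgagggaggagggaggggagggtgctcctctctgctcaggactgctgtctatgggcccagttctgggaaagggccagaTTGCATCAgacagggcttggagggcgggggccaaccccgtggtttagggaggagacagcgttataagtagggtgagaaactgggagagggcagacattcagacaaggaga

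Over windows that run from 250 bases before to 50 after a gene start, either form of the element was found in 294 of 32851 RefSeq promoters (0.895%). Of the 18 list members with a promoter, 4 held it: Chac1, Nupr1, Fgf21 and Slc7a11. Fgf21 and Slc7a11 were left out as dim. The element thus stood in one gene that rose and one that fell, and no other member that rose has these letters in a promoter given here.

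Clock repressors and output genes were counted apart from the activators. Of 12 repressors and output genes, 7 rose and 0 fell, with a median of 0.67 (0.23 with spike-in scaling). Of 5 activators, 1 rose, and the median was -0.2 (0.02 with median centring). Ciart, a repressor of the CLOCK-BMAL1 activator, stood at -3.1 and -3.21 in MDX_tap and -1.69 and -1.47 in MDX_JJ101, a difference of 1.57 (SE 0.23, adjusted p = 0.0132). Dbp, an output factor that BMAL1 drives directly, stood at 4.46 and 4.38 against 5.62 and 5.62, a difference of 1.21 (SE 0.14, adjusted p = 0.0128). Nr1d1, the REV-ERB alpha repressor, stood at 0.92 and 0.76 against 1.88 and 2.02, a difference of 1.11 (SE 0.13, adjusted p = 0.0128). For these 3 genes the MDX_JJ101 arrays were nearer to the B10_tap arrays, at -1.83 and -1.2 for Ciart, 5.62 and 5.94 for Dbp and 1.71 and 1.51 for Nr1d1, than to MDX_tap. The same MDX_tap arrays enter both comparisons, so the return of a value towards B10_tap is not a separate result. Tef had 0.88 (SE 0.18, adjusted p = 0.0208), the cryptochrome gene Cry2 0.8 (SE 0.13, adjusted p = 0.0145), Bhlhe41 0.57 (SE 0.09, adjusted p = 0.0145) and Hlf 0.51 (SE 0.15, adjusted p = 0.0479), the last 0.33 without MDX_JJ101 replicate 2. Arntl, which encodes BMAL1, stood at 0.79 and 0.97 against 0.54 and 0.82, a difference of -0.2 (SE 0.29, adjusted p = 0.597), and Clock had -0.5 (SE 0.15, adjusted p = 0.0536). The labels give no hour of collection, so the part of the time of day in these values was not tested.

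CLOCK and BMAL1 bind the E-box CACGTG, which reads the same on both strands. It was found in 2349 of 32851 promoters (7.15%), in 5 of the 11 repressor and output genes with a promoter (Bhlhe41, Ciart, Cry1, Per1 and Tef) and in 0 of 5 activators. Of these, Bhlhe41, Ciart and Tef rose, Per1 did not pass and Cry1 was dim. Dbp, Nr1d1, Cry2 and Hlf also rose, and no E-box was found in their promoters. Ciart, which had the highest difference of the list, held 3 E-boxes, starting at -116, -58 and -44, and Bhlhe41 held 1 at -153. Their 250 bases before the start are shown with the E-boxes in capitals, Ciart at chr3:95882229-95882478 and Bhlhe41 at chr6:145865421-145865670, both from the minus strand of GRCm38.p6.
Ciart: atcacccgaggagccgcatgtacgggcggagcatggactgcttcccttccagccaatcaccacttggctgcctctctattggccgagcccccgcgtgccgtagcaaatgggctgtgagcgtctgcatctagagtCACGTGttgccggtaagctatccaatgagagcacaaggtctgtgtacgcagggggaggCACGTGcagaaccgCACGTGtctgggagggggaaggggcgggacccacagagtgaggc
Bhlhe41: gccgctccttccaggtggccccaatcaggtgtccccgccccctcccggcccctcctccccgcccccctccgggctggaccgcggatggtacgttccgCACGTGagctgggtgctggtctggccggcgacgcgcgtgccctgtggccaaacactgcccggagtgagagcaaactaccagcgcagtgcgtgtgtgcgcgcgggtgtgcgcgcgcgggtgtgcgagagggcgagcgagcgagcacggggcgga

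Genes of energy metabolism had more higher than lower calls. Their lists had median levels of 5.9 to 8.0 in MDX_tap, within the range of the brightest bin. In that bin 35.7% of all genes passed as higher and 9.6% as lower. Glycolysis and glycogen genes had 13 of 20 higher and 0 lower, with a median of 0.56. With spike-in scaling the median was 0.13 and 0 of them passed in limma. The arrays did not overlap in 20 of the 20, beside 72.7% of all genes. That share was not taken for the brightest bin alone. Gys1, the muscle glycogen synthase, stood at 2.78 and 3.16 in MDX_tap and 4.02 and 4.13 in MDX_JJ101, a difference of 1.11 (SE 0.15, adjusted p = 0.013). The hexokinase gene Hk1 stood at 4.93 and 4.91 against 5.82 and 5.89, a difference of 0.94 (SE 0.1, adjusted p = 0.0128). Pfkm, the muscle phosphofructokinase, had 0.92 (SE 0.15, adjusted p = 0.0151), the insulin-responsive glucose transporter gene Slc2a4 0.79 (SE 0.13, adjusted p = 0.0149) and the glycogen phosphorylase gene Pygm 0.72 (SE 0.13, adjusted p = 0.0176). Gapdh, Eno3 and Ldha did not pass, with 0.23, 0.27 and 0.23.

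Citric acid cycle genes had 15 of 19 higher, the highest share of higher genes in the 46 lists, with a median of 0.65. With spike-in scaling the median was 0.21 and 0 passed in limma. The arrays lay apart in 19 of 19, beside 72.7% of all genes at any level. The citrate synthase gene Cs stood at 8.14 and 8.4 in MDX_tap and 9.05 and 9.23 in MDX_JJ101, a difference of 0.87 (SE 0.14, adjusted p = 0.0145), and Ogdh, of the oxoglutarate dehydrogenase complex, had 0.84 (SE 0.15, adjusted p = 0.016). Respiratory chain genes had 11 of 20 higher, with a median of 0.39 that turned to -0.045 with spike-in scaling. Among them Uqcrc1, a core subunit of complex III, stood at 6.46 and 6.51 against 7.45 and 7.77, a difference of 1.13 (SE 0.14, adjusted p = 0.0128). Cyc1, which encodes cytochrome c1, had 0.75 (SE 0.1, adjusted p = 0.013). The 4 ATP synthase genes on the list, Atp5a1, Atp5b, Atp5c1 and Atp5o, did not pass, with 0.39, 0.24, 0.25 and 0.23.

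Fatty acid genes had 7 of 20 higher, about the share in the brightest bin (35.7%), and 0 lower. Their median was 0.44, which spike-in scaling took to about 0. Acads, the short-chain acyl-CoA dehydrogenase, stood at 2.39 and 2.41 in MDX_tap and 3.34 and 3.94 in MDX_JJ101, a difference of 1.24 (SE 0.21, adjusted p = 0.0153). Hadha, of the mitochondrial trifunctional protein, had 0.77 (SE 0.18, adjusted p = 0.0286) and the acyl-CoA synthetase gene Acsl1 0.75 (SE 0.16, adjusted p = 0.0245). Cpt1b, the gate for entry into mitochondria, had 0.68 (SE 0.18, adjusted p = 0.0373), or 0.45 without MDX_tap replicate 1. The coactivator gene Ppargc1a, a driver of mitochondrial biogenesis, stood at 3.39 and 3.63 against 3.99 and 4.4, a difference of 0.68 (SE 0.17, adjusted p = 0.0353). Uptake genes did not pass: Cd36 had -0.11 and Fabp3 -0.01. Pdk4, which blocks glucose oxidation, stood at 5.29 and 6.33 in MDX_tap and 5.37 and 7.05 in MDX_JJ101, and its replicates differed by more than the groups.

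Autophagy genes had 11 of 20 higher and 1 lower, with a median of 0.6 (0.17 with spike-in scaling). Sqstm1, the cargo receptor p62, stood at 3.12 and 3.02 in MDX_tap and 4.05 and 4.82 in MDX_JJ101, a difference of 1.37 (SE 0.26, adjusted p = 0.0188). Map1lc3b, which encodes the LC3 protein of the autophagosome membrane, stood at 5.16 and 5.09 against 6.03 and 6.29, a difference of 1.03 (SE 0.12, adjusted p = 0.0128). The initiating kinase gene Ulk1 had 0.92 (SE 0.2, adjusted p = 0.0252) and Tfeb, the master regulator of lysosomal genes, 0.8 (SE 0.11, adjusted p = 0.0129). Lamp2, a lysosomal membrane protein gene, fell from 4.79 and 4.89 to 4.53 and 4.27, a difference of -0.44 (SE 0.12, adjusted p = 0.045). Of 15 regulators of muscle mass, 5 rose and 1 fell, with a median of 0.3 (-0.13 with spike-in scaling). Akt1, a kinase of the insulin pathway, had 0.78 (SE 0.12, adjusted p = 0.0136). The growth factor gene Igf1 fell from 2.12 and 2.18 to 1.08 and 0.54, a difference of -1.34 (SE 0.19, adjusted p = 0.0131). The ubiquitin ligase genes of atrophy did not pass: Fbxo32 had 0.68 (SE 0.21, adjusted p = 0.0564) and Trim63 0.53 (SE 0.17, adjusted p = 0.0601).

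Dmd, the mutated gene, was lower in MDX_JJ101. It stood at -0.84 and -0.27 in MDX_tap and -1.5 and -1.74 in MDX_JJ101, a difference of -1.07 (SE 0.21, adjusted p = 0.0205), against 1.06 and 1.06 in B10_tap. Both MDX groups were below B10_tap on every array. A further 2 probes of Dmd were measured, and the 3 ran from -1.76 to -1.07. Utrn, which encodes utrophin, the protein that can take the place of dystrophin, stood at -0.57 and -0.2 against -0.72 and -0.9, a difference of -0.43 (SE 0.16, adjusted p = 0.0854). Of 17 genes of the dystrophin complex, 8 rose and 3 fell, with a median of 0.41 that turned to -0.023 with spike-in scaling. Those that rose included Dag1, Sgca, Sgcb and Sspn of the membrane complex, and Cav3. Dag1, which encodes both dystroglycans, stood at 3.28 and 3.41 against 4.17 and 4.35, a difference of 0.92 (SE 0.13, adjusted p = 0.0132). The sarcoglycan gene Sgca had 0.85 (SE 0.16, adjusted p = 0.018), and sarcospan (Sspn) 0.62 (SE 0.1, adjusted p = 0.0144). Those that fell were Dmd, the syntrophin gene Sntb2 with -0.82 (SE 0.19, adjusted p = 0.0292) and Lama2, the laminin chain that dystroglycan binds, with -0.47 (SE 0.12, adjusted p = 0.0396).

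Among heart regulators 5 of 12 rose and 0 fell, with a median of 0.56 (0.13 with spike-in scaling). The transcription factor gene Tbx5 stood at 1.18 and 0.96 in MDX_tap and 2.17 and 2.23 in MDX_JJ101, a difference of 1.13 (SE 0.13, adjusted p = 0.0128). Myocd, a coactivator of serum response factor, had 1.08 (SE 0.19, adjusted p = 0.0158), Nkx2-5 0.96 (SE 0.1, adjusted p = 0.0128) and Gata4 0.69 (SE 0.1, adjusted p = 0.013). The natriuretic peptide genes, which mark load on the heart, did not pass. Nppa stood at 8.97 and 8.52 against 9.99 and 9.34 with 7.09 and 7.48 in B10_tap, a difference of 0.91 (SE 0.29, adjusted p = 0.0589), and Nppb at 7.74 and 7.21 against 7.71 and 7.08. Of 8 heart contractile genes, Tnni3 with 0.56 (SE 0.1, adjusted p = 0.0175) and Mybpc3, the cardiac myosin-binding protein, with 0.56 (SE 0.1, adjusted p = 0.0159) rose. The other 6 did not pass, with Myh6 at 0.06 and Myl2 at 0.07, and the list median of 0.21 turned to -0.23 with spike-in scaling.

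Genes of the Z disc and M band had 11 of 16 higher and 0 lower, with a median of 0.67 (0.24 with spike-in scaling). Actn2, the actinin of the Z disc, stood at 6.4 and 6.5 in MDX_tap and 7.23 and 7.64 in MDX_JJ101, a difference of 0.99 (SE 0.16, adjusted p = 0.0149), and Cryab, a small chaperone of desmin filaments, had 0.88 (SE 0.11, adjusted p = 0.0128). At the cell junctions 3 of 12 genes rose, beside 19.9% of all genes, with a median of 0.21 that turned to -0.22 with spike-in scaling. These were Nrap, the desmin gene Des at 5.15 and 5.08 against 6.23 and 6.42, a difference of 1.21 (SE 0.12, adjusted p = 0.0125), and the desmoplakin gene Dsp with 0.87 (SE 0.15, adjusted p = 0.0158). The connexin gene Gja1 and the cadherin gene Cdh2 had -0.23 and 0.01 and did not pass.

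Ion channel genes of the heart had the highest median of all 46 lists, 0.96, which stayed above 0 at 0.53 with spike-in scaling. Of 13 tested, 7 rose and 0 fell. Kcnip2, a subunit of the transient outward channel, stood at 0.53 and 0.42 in MDX_tap and 1.74 and 2.27 in MDX_JJ101, a difference of 1.53 (SE 0.19, adjusted p = 0.0128). Kcnj11, the pore of the ATP-sensitive channel, stood at 1.55 and 1.33 against 2.68 and 3.18, a difference of 1.49 (SE 0.2, adjusted p = 0.0129). Kcnk3, a background potassium channel gene, stood at 3.98 and 4.03 against 5.22 and 5.54, a difference of 1.38 (SE 0.13, adjusted p = 0.0125). The repolarizing channel genes Kcnh2 and Kcnq1 had 1.17 (SE 0.12, adjusted p = 0.0128) and 0.96 (SE 0.17, adjusted p = 0.017), and the sodium channel subunit gene Scn4b 1.04 (SE 0.19, adjusted p = 0.017). All of these but Scn4b encode potassium channels or their subunits. In calcium handling 5 of 12 rose, with a median of 0.45 (0.017 with spike-in scaling). The list's median level in MDX_tap, 4.2, lay in the range of the brightest bin, where 35.7% of all genes rose. Jph2, which holds the calcium store to the T-tubule, had 1.07 (SE 0.23, adjusted p = 0.0242) and Hrc, a calcium-binding protein of the store, 0.61 (SE 0.13, adjusted p = 0.0224). The pump gene Atp2a2 and the release channel gene Ryr2 had 0.3 and 0.5 and did not pass.

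**Figure D3:**
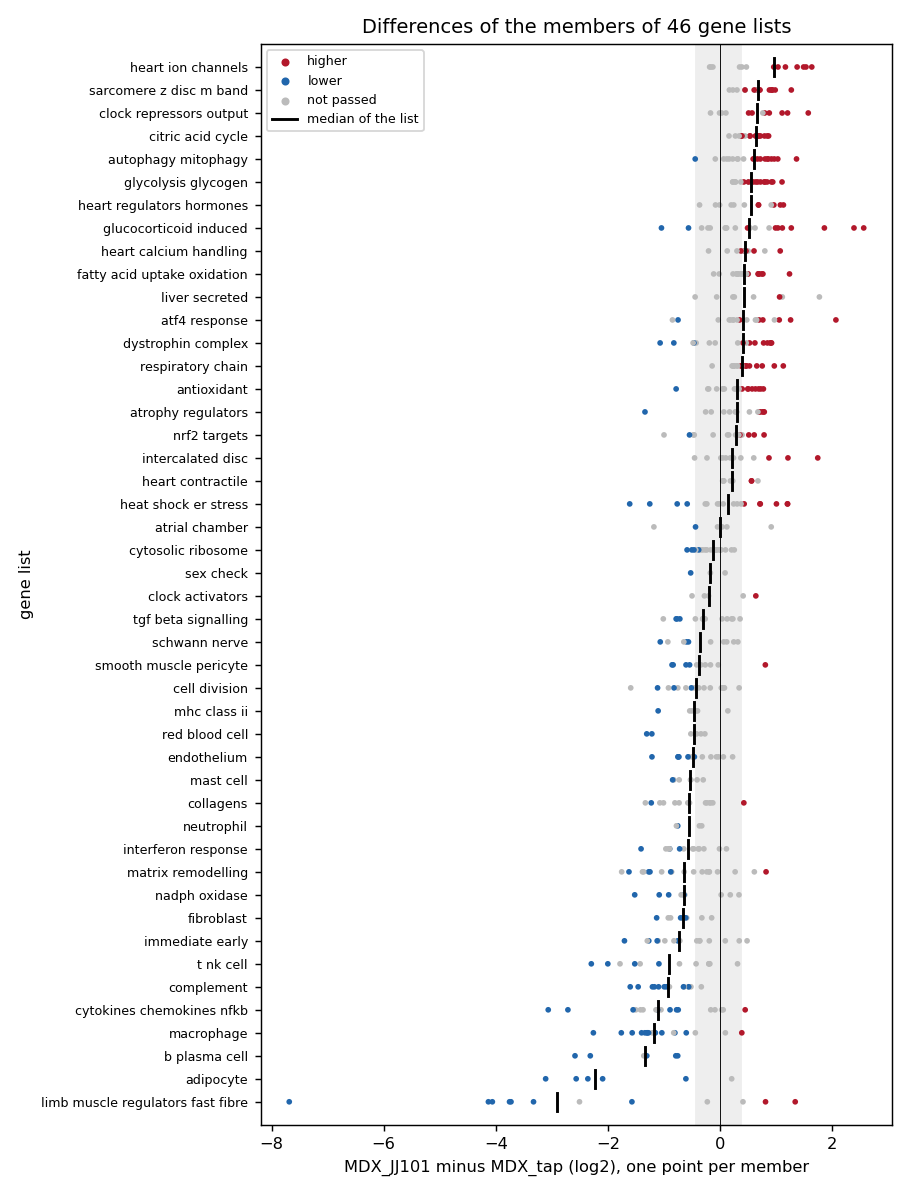
Difference between MDX_JJ101 and MDX_tap (log2, horizontal axis) for each tested member of the 46 lists, one row per list and one point per gene, with the list's median as a black line. Red passed as higher, blue as lower and grey did not pass; the grey band spans the quartiles of all genes, -0.43 to 0.38. Ion channel genes, all measured on the 4 MDX arrays, have the highest median (0.96). The median of limb and fast fibre genes (-2.92) holds dim members and is 0.41 over the 5 measured on all 4 arrays.

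The genes that lost most were small nuclear RNAs, fast-fibre genes and genes of fat and immune cells. Rnu3b1, a U3 RNA of ribosomal RNA processing, stood at 1.99 and 3.96 in MDX_tap and -1.08 and -1.52 in MDX_JJ101, a difference of -4.28 (SE 0.66, adjusted p = 0.0139). Rnu1b6, a U1 RNA of the spliceosome, stood at 5.41 and 6.4 against 2.18 and 1.52, a difference of -4.05 (SE 0.41, adjusted p = 0.0128), or 16.6-fold. Rnu2-10, a U2 RNA, had -3.74 (SE 0.47, adjusted p = 0.0128) and Rmrp, the RNA of RNase MRP, -3.15 (SE 0.36, adjusted p = 0.0128). Both MDX_JJ101 arrays lay below all 4 other arrays of the series for each of these. A class of 8 short noncoding RNAs, put together after these values were seen, adds Snora74a with -3.67, Rnu12 with -1.13, Snora47 and the telomerase RNA Terc. All 8 passed as lower, with a median of -3.41. The 8 stayed below 0 and past the threshold with quantile, median and spike-in scaling and in the authors' deposited table, and 7 did with normexp and quantile normalization. Snora47 and Terc were not well above background on either MDX_JJ101 array. Such RNAs are short, and how the extraction or the labelling recovered them was not tested. Of 13578 protein-coding genes 13.4% passed as lower and 24.95% as higher.

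Of 12 limb and fast-fibre genes tested, 5 were well above background on all 4 MDX arrays. Over those 5 the median was 0.41, with 2 higher and 2 lower when only such genes were tested. The other members entered through the groups where they are high, and with them the median was -2.92 (7 lower, 2 higher), or -1.08 with normexp and quantile normalization. Myh4, the myosin of fast IIb fibres, stood at 0.91 and 3.53 in MDX_tap and -5.52 and -5.42 in MDX_JJ101, where it was not well above background, so the fall was at least 46.3-fold, with an adjusted p of 0.0128. This bound compares the MDX_tap mean with the lowest signal well above background on the MDX_JJ101 arrays. Tnnc2, the fast troponin C, stood at 1.31 and 3.88 against -1.53 and -1.4, a difference of -4.06 (SE 0.82, adjusted p = 0.0208), and the fast troponin T gene Tnnt3, measured on 1 of the MDX_JJ101 arrays, had -3.76 (SE 0.79, adjusted p = 0.0228). The MDX_tap arrays differed from each other by more than 2 for these 3 genes, and B10_tap lay between them, at 2.62 and 2.28 for Myh4 and 3.14 and 2.62 for Tnnc2. Myh1 and Myh2, the myosins of other fast fibres, were at least 3.67-fold and 3.6-fold lower, and the actinin gene Actn3 at least 2.7-fold. Pvalb, the calcium buffer of fast fibres, stood at 0.53 and 2.54 against -1.03 and -0.99, a difference of -2.55 (SE 0.65, adjusted p = 0.0355). Without MDX_tap replicate 2 Pvalb was -1.54, Myh1 -2.65 and Actn3 -1.97. For Myh1 and Actn3 these values use MDX_JJ101 signal not well above background and are not bounds. Myh1 stood at -2.92 and 0.05 in MDX_tap. The lowest signals well above background on the MDX_JJ101 arrays were -3.33 and -3.29, so its bound rests mainly on MDX_tap replicate 2. The satellite cell gene Pax7 was at least 1.1-fold lower. Atp2a1, the calcium pump of fast fibres, went the other way, at 2.85 and 2.87 against 3.98 and 4.43 with 1.34 (SE 0.17, adjusted p = 0.0128).

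Of 6 fat cell markers, 3 were well above background on all 4 MDX arrays, with a median of -0.61 and 2 lower. The others passed the filter through groups on tap water, and with them 5 were lower and the median was -2.23, or -0.62 with normexp and quantile normalization. Cfd, which encodes adipsin, stood at 1.15 and 1.54 in MDX_tap and -0.64 and -2.89 in MDX_JJ101, a difference of -3.11 (SE 0.71, adjusted p = 0.0277), or -1.99 without MDX_JJ101 replicate 2. The hormone genes Adipoq and Retn were well above background on both MDX_tap arrays and on neither MDX_JJ101 array, and were at least 2.06-fold and 1.83-fold lower. Fabp4, a fatty acid carrier of fat cells and vessels, fell from 8.16 and 8.07 to 7.59 and 7.42, a difference of -0.61 (SE 0.12, adjusted p = 0.0193). Pparg had 0.21 (SE 0.11, adjusted p = 0.182), and Plin1, Lep and Ucp1 were left out as dim. In a bulk sample, fewer cells of a type and less RNA per cell cannot be told apart, here and in the cell types below.

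**Figure D4:**
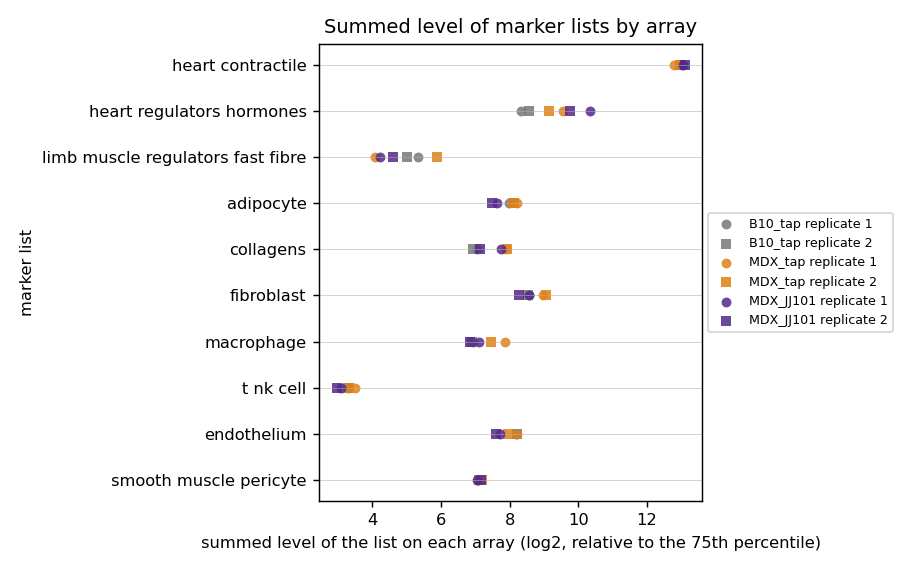
Summed level of each marker list on each of the 6 arrays (log2 relative to the 75th percentile, horizontal axis). Heart contractile genes differ little between arrays, while the MDX_JJ101 points lie below both MDX_tap points for adipocytes, fibroblasts, macrophages and endothelium. The sums are led by the brightest probes, so the limb and fast fibre sum, at 4.23 and 4.62 in MDX_JJ101, lies within the MDX_tap range.

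Matrix genes had medians below 0, and how many passed depended on the normalization. Of 14 collagen genes 1 rose and 1 fell, with a median of -0.56. In limma 10 fell with normexp and quantile normalization, 9 fell in the authors' deposited values and 6 fell with spike-in scaling, and 0 rose in each. Col3a1, a fibrillar collagen of scars, stood at 5.7 and 5.83 in MDX_tap and 5.33 and 4.18 in MDX_JJ101, a difference of -1.01 (SE 0.37, adjusted p = 0.0868), and Col1a1 at 4.11 and 4.13 against 4.37 and 3.5, a difference of -0.18 (SE 0.28, adjusted p = 0.632). Replicate 2 of MDX_JJ101 was the lower of the pair in both. Col5a2 fell with -1.23 (SE 0.29, adjusted p = 0.0289), or -0.79 without that array, and the basement membrane gene Col4a2 rose with 0.43 (SE 0.11, adjusted p = 0.0358), which turned to -0.0085 with spike-in scaling. In the other matrix genes 1 of 19 rose and 4 fell, with a median of -0.64; normexp and quantile normalization gave 8 lower and spike-in scaling 10. The proteoglycan gene Dcn stood at 9.02 and 9.14 against 8.06 and 7.61, a difference of -1.25 (SE 0.17, adjusted p = 0.013). Its relative Lum stood at 5.71 and 5.78 against 4.55 and 3.69, a difference of -1.62 (SE 0.29, adjusted p = 0.0163). The protease gene Mmp3 had -1.27 (SE 0.28, adjusted p = 0.0243) and the crosslinking enzyme gene Lox -0.88 (SE 0.21, adjusted p = 0.0291). Fibronectin (Fn1) had -0.86 (SE 0.28, adjusted p = 0.064).

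Of 13 TGF-beta pathway genes 3 fell and 0 rose, with a median of -0.31 (-0.08 with median centring). The ligand genes Tgfb1, Tgfb2 and Tgfb3 did not pass, with 0.21, 0.04 and -0.26. The receptor gene Tgfbr1 stood at 1.24 and 1.37 against 0.69 and 0.36, a difference of -0.78 (SE 0.15, adjusted p = 0.018). Ltbp1, which stores latent TGF-beta in the matrix, had -0.72 (SE 0.16, adjusted p = 0.0264) and the inhibitor gene Smad7 -0.77 (SE 0.18, adjusted p = 0.0289). Fibroblast markers fell in 4 of 10, with a median of -0.67, among them Fap with -1.13 (SE 0.2, adjusted p = 0.0165) and Gsn with -0.7 (SE 0.12, adjusted p = 0.0157). The fibroblast sum was 8.99 and 9.06 in MDX_tap and 8.58 and 8.29 in MDX_JJ101, and its part in the matrix differences was not tested. For collagens the median of MDX_tap minus B10_tap was 0.93, beside -0.56 for MDX_JJ101 minus MDX_tap; both use the MDX_tap arrays.

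Complement genes fell in 9 of 14 and rose in 0, with a median of -0.93. C3, the central component, stood at 7.6 and 7.6 in MDX_tap and 6.8 and 6.41 in MDX_JJ101, a difference of -0.99 (SE 0.16, adjusted p = 0.0142). C4b, of the classical pathway, had -1.21 (SE 0.19, adjusted p = 0.014) and C2 -1.46 (SE 0.28, adjusted p = 0.0191). Cd55, a regulator that protects cells from complement, had -1.17 (SE 0.16, adjusted p = 0.013). The recognition genes C1qa and C1qb had -0.33 and -0.52 and did not pass, though their partner C1qc fell with -0.65 (SE 0.14, adjusted p = 0.0251).

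Macrophage markers fell in 13 of 18 and rose in 1, with a median of -1.18. The sum of the list was 7.86 and 7.45 in MDX_tap, 7.11 and 6.84 in MDX_JJ101 and 6.94 and 6.9 in B10_tap, and all 18 were well above background on both MDX_JJ101 arrays. Spp1, the osteopontin gene, stood at 0.3 and -0.47 in MDX_tap and -1.77 and -2.91 in MDX_JJ101, a difference of -2.26 (SE 0.45, adjusted p = 0.0204), with -4.92 and -4.54 in B10_tap. The mannose receptor gene Mrc1 stood at 3.41 and 3.14 against 2.26 and 1.74, a difference of -1.27 (SE 0.22, adjusted p = 0.0155), and Adgre1, an adhesion receptor gene of mature macrophages, at 2.8 and 2.33 against 1.58 and 0.96, a difference of -1.3 (SE 0.26, adjusted p = 0.0201). Trem2, a lipid receptor of macrophages in damaged tissue, had -1.15 (SE 0.24, adjusted p = 0.0233) and Gpnmb -1.57 (SE 0.37, adjusted p = 0.0301). The monocyte chemokine receptor gene Ccr2 had -1.76 (SE 0.49, adjusted p = 0.0442), or -1.04 without MDX_JJ101 replicate 2. Itgam was the exception with 0.39 (SE 0.1, adjusted p = 0.0404), which turned to -0.42 with the median of its probes and -0.045 with spike-in scaling. Other myeloid genes among the 12 lowest were Cd83 of activated antigen-presenting cells, at 2.97 and 2.81 against 0.82 and 0.43 with -2.27 (SE 0.17, adjusted p = 0.0124), and Ms4a7 with -1.88 (SE 0.38, adjusted p = 0.0209). Sirpb1b had -1.97 (SE 0.52, adjusted p = 0.0387) and Chil3, a chitinase-like protein gene, -1.87 (SE 0.5, adjusted p = 0.0393), or -1.22 without MDX_tap replicate 1. In each, the MDX_JJ101 arrays lay below both MDX_tap arrays, which the rule for the 12 lowest required.

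Of 12 T and NK cell markers, 7 were well above background on all 4 MDX arrays, with a median of -0.20 and 2 lower when only such genes were tested. With members kept through other groups 4 were lower and the median was -0.91, or -0.39 with normexp and quantile normalization. The receptor chain gene Cd3g stood at -1.23 and -1.53 in MDX_tap and -2.8 and -4.56 in MDX_JJ101, a difference of -2.3 (SE 0.56, adjusted p = 0.0321), or -1.42 without MDX_JJ101 replicate 2. On that replicate its level lay below the lowest signal well above background, -3.29, so the size of the fall is uncertain. Cd3e of the same receptor had -0.2 (SE 0.11, adjusted p = 0.206) and did not pass, and Cd8a was left out as dim. Of 6 B cell and plasma cell markers, 2 were well above background on all 4 MDX arrays and both were lower, among them Cd79b, of the B cell receptor, with -1.31 (SE 0.28, adjusted p = 0.0232). With members kept through other groups 5 were lower and the median was -1.33, or -0.44 with normexp and quantile normalization. Of 6 MHC class II genes 1 fell, H2-DMb1 with -1.1 (SE 0.26, adjusted p = 0.0301). Beside 16.1% of all genes, of 4 neutrophil markers 1 fell and of 7 mast cell markers 1, Tpsb2 with -0.85 (SE 0.16, adjusted p = 0.0185).

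Of 19 cytokine, chemokine and NF-kB genes 7 fell and 1 rose, with a median of -1.1, or -0.89 over the 15 measured on all 4 MDX arrays. The chemokine gene Ccl8 stood at 5.15 and 4.24 in MDX_tap and 3.41 and 2.88 in MDX_JJ101, a difference of -1.55 (SE 0.42, adjusted p = 0.0414). Ccl9 stood at 3.53 and 3.43 against 2.71 and 2.46, a difference of -0.89 (SE 0.14, adjusted p = 0.0146), and Ccl6 had -0.77 (SE 0.13, adjusted p = 0.016). The cytokine gene Il1b stood at -0.12 and -2.05 in MDX_tap and Il6 at -0.9 and -3.42, and both were well above background on neither MDX_JJ101 array. They were at least 4.68-fold and 2.22-fold lower (adjusted p = 0.0324 and 0.0446). Their differences of -2.71 and -3.06 were -1.75 and -1.80 without MDX_tap replicate 1, the higher of the pair. These differences use MDX_JJ101 signal not well above background, so their size is uncertain. The lowest signals well above background on the MDX_JJ101 arrays were -3.33 and -3.29. Il6 on MDX_tap replicate 2 lay below both, so its bound rests on MDX_tap replicate 1. Ccl2 had -1.37 (SE 0.67, adjusted p = 0.161) and did not pass. Tnf was well above background on neither MDX_JJ101 array and on 1 MDX_tap array, and did not pass. Among the NF-kB genes themselves, Nfkb2 rose with 0.45 (SE 0.1, adjusted p = 0.0236), and Nfkb1, Relb and Nfkbia did not pass, with -0.09, -0.16 and 0.06. Interferon-response genes fell in 3 of 14, beside 16.1% of all genes, with a median of -0.57. They were Ifit1 with -1.41 (SE 0.28, adjusted p = 0.020), Gbp2 with -0.9 (SE 0.2, adjusted p = 0.0269) and Ifit2 with -0.72 (SE 0.12, adjusted p = 0.0156).

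Endothelial genes were lower in 6 of 14, with a median of -0.48. The junction gene Cldn5 stood at 4.39 and 4.04 in MDX_tap and 3.0 and 3.0 in MDX_JJ101, a difference of -1.21 (SE 0.16, adjusted p = 0.013). Kdr, the main VEGF receptor, had -0.75 (SE 0.14, adjusted p = 0.0193) and Vwf -0.73 (SE 0.13, adjusted p = 0.0176), while Pecam1 and Eng had -0.16 and -0.06 and did not pass. Of 10 smooth muscle and pericyte genes 4 fell, among them Myh11 with -0.86 (SE 0.15, adjusted p = 0.0157) and Rgs5 with -0.54 (SE 0.09, adjusted p = 0.0155), and 1 rose, Smtn with 0.81 (SE 0.12, adjusted p = 0.0137). Of 10 Schwann cell markers 3 fell, and of 6 red cell markers 2. These were the beta globin genes Hbb-b1 with -1.31 (SE 0.34, adjusted p = 0.036) and Hbb-b2 with -1.22 (SE 0.34, adjusted p = 0.0435), a near-identical pair whose probes may share signal.

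Genes that remove reactive oxygen were mostly higher or not called. Of 18 antioxidant genes 8 rose and 1 fell, with a median of 0.31 that turned to -0.12 with spike-in scaling. Their median level in MDX_tap, 5.2, lay in the range of the brightest bin. In that bin 35.7% of all genes rose, with a median of 0.23. Prdx5, a peroxiredoxin of mitochondria and peroxisomes, stood at 6.26 and 6.24 in MDX_tap and 6.98 and 7.06 in MDX_JJ101, a difference of 0.77 (SE 0.09, adjusted p = 0.0128). The mitochondrial genes Txn2 and Sod2 had 0.73 (SE 0.1, adjusted p = 0.0131) and 0.63 (SE 0.11, adjusted p = 0.0164), and catalase (Cat) 0.5 (SE 0.13, adjusted p = 0.0375). Prdx4, the peroxiredoxin of the endoplasmic reticulum, fell from 2.92 and 2.8 to 2.11 and 2.04, a difference of -0.78 (SE 0.11, adjusted p = 0.013). The cytosolic peroxiredoxin gene Prdx6 rose with 0.69 (SE 0.14, adjusted p = 0.0219), while Sod1, Txn1 and Gpx1 did not pass, with 0.26, 0.08 and 0.06. Of 15 NRF2 genes, with a median level of 2.85 that also lay in that range, 4 rose and 1 fell. The median difference was 0.28 (-0.16 with spike-in scaling). The glutathione transferase gene Gsta4 had 0.79 (SE 0.16, adjusted p = 0.0215). The one that fell was Nfe2l2, which encodes NRF2, with -0.54 (SE 0.1, adjusted p = 0.0181). Hmox1, the inducible heme oxygenase, stood at 2.13 and 1.32 against 1.89 and -0.44, a difference of -1.0 (SE 0.77, adjusted p = 0.34). NADPH oxidase genes, which make reactive oxygen, fell in 4 of 9, with a median of -0.64. Nox4 stood at 0.54 and 0.38 against -0.49 and -1.64, a difference of -1.52 (SE 0.39, adjusted p = 0.0366), and the phagocyte oxidase gene Cybb had -1.08 (SE 0.31, adjusted p = 0.0481). Without MDX_JJ101 replicate 2 they were -0.95 and -0.63. The subunit gene Ncf1 had -0.64 (SE 0.12, adjusted p = 0.018). Cybb, Ncf1 and Ncf4 are genes of phagocytes, whose markers moved the same way, as given above; the part of those cells was not tested.

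Chaperone genes split. Of 18 heat shock and ER stress genes 6 rose and 4 fell, with a median of 0.15 (-0.28 with spike-in scaling). Their median level in MDX_tap, 5.5, lay in the range of the brightest bin, where 35.7% of all genes rose and 9.6% fell. The small heat shock genes of muscle rose: Hspb7 stood at 5.8 and 5.79 in MDX_tap and 6.82 and 7.17 in MDX_JJ101, a difference of 1.2 (SE 0.14, adjusted p = 0.0128), and Hspb8 had 1.01 (SE 0.09, adjusted p = 0.0125). Herpud1, of the ER degradation pathway, had 1.21 (SE 0.2, adjusted p = 0.0152). The Hsp90 pair split: Hsp90aa1, the inducible form, fell with -0.59 (SE 0.1, adjusted p = 0.0149), and Hsp90ab1 rose with 0.43 (SE 0.11, adjusted p = 0.0341), or -0.0025 with spike-in scaling. The Hsp70 cofactor gene Dnaja1 stood at 5.53 and 5.4 against 4.19 and 4.24, a difference of -1.25 (SE 0.11, adjusted p = 0.0124), and Hspa1a, an inducible Hsp70, had -1.61 (SE 0.45, adjusted p = 0.0451), or -0.95 without MDX_tap replicate 1. Immediate early genes, which respond quickly to stimuli, fell in 4 of 17, beside 16.1% of all genes, with a median of -0.73. Fosl2 stood at 3.26 and 3.04 against 1.74 and 2.02, a difference of -1.27 (SE 0.14, adjusted p = 0.0128), Klf4 had -1.12 (SE 0.23, adjusted p = 0.0208), Egr2 -1.7 (SE 0.44, adjusted p = 0.0359) and Maff -0.75 (SE 0.11, adjusted p = 0.0133). Fos and Egr1 did not pass, with -1.1 (SE 0.54, adjusted p = 0.16) and -0.72 (SE 0.51, adjusted p = 0.302); replicate 1 of MDX_tap was the highest array for both.

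Of 16 cell division genes 3 fell, close to the share of all genes (16.1%), and 0 rose. Their median was -0.42, or -0.29 over the 13 measured on all 4 MDX arrays. Mki67, which marks cycling cells, stood at 1.0 and 1.17 in MDX_tap and 0.34 and 0.2 in MDX_JJ101, a difference of -0.82 (SE 0.17, adjusted p = 0.0224), and Cdk1 was well above background on neither MDX_JJ101 array. Of 20 ribosomal protein genes 4 fell, also near that share, and 0 rose, and the median of -0.13 turned to 0.1 with median centring. The lowest of these differences was that of Rps18, -0.59 (SE 0.14, adjusted p = 0.0291). The remaining short lists had at most 1 call each. Atrial genes had 1 of 6 lower, the connexin gene Gja5, genes of liver secretion 1 of 8 higher, the transthyretin gene Ttr, and genes used to check sex 1 of 3 lower, Ddx3y with -0.52 (SE 0.13, adjusted p = 0.0321).

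**Figure D5:**
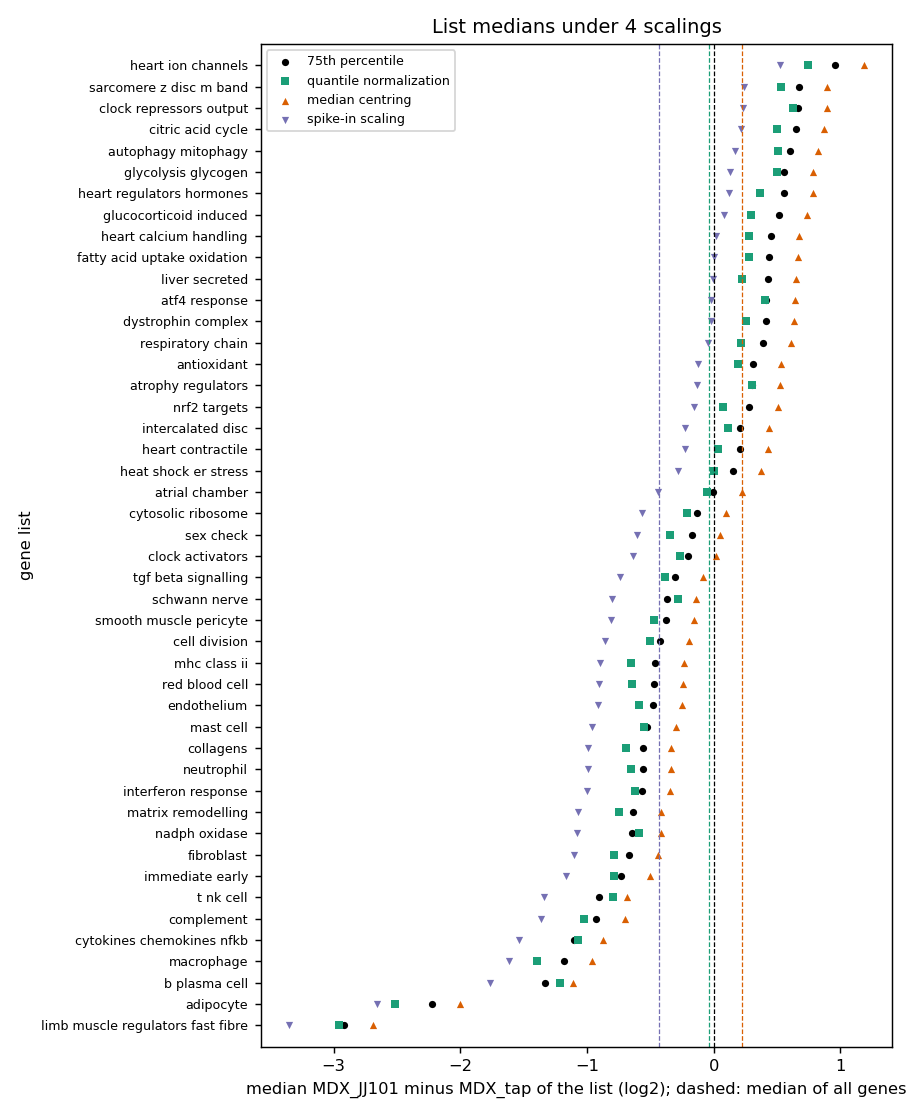
Median difference of each of the 46 lists (log2, horizontal axis) under 75th percentile scaling, quantile normalization, median centring and spike-in scaling, with the median of all genes under each as a dashed line. The order of the lists changes little, while spike-in scaling moves all medians down with the median of all genes (-0.43), so that those of the respiratory chain (-0.045) and the dystrophin complex (-0.023) fall below 0.

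Of the calls, 41 were genes well above background in MDX_JJ101 and on neither MDX_tap array. Prss43, a serine protease gene best known from testis, was well above background on both MDX_JJ101 arrays, at -1.01 and -2.32, and on neither MDX_tap array, a difference of at least 5.13-fold (adjusted p = 0.0125). Skint1, an immunoglobulin-family gene of skin and thymus epithelium, was at least 4.51-fold higher with arrays at -1.88 and -1.81. Clrn1, which acts in hair cells of the ear, was at least 4.41-fold higher, and Avp, the vasopressin gene, at least 3.98-fold. None of the 4 was well above background on either B10_tap array, so they passed the filter only through MDX_JJ101, the group where they are high. Their p-values are therefore no separate support. All levels of the 4 were below -1. On the other side, Snora47 was at least 6.05-fold lower beside Myh4, Il1b and Myh1.

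Of the 6917 transcripts without a symbol, 732 passed as higher and 1470 as lower, against 3428 and 1899 of the 13952 genes with one. Their median difference was -0.19, beside 0.088 for genes with a symbol. Some are transcribed regions that the array names by mm9 coordinates; the gene table used here is of another build, so no gene is given for them. The region on chromosome 5 from 74487385 to 74497428 stood at 1.56 and 2.34 in MDX_tap and -1.69 and -2.0 in MDX_JJ101, a difference of -3.79 (SE 0.38, adjusted p = 0.0127), and its 4 probes ran from -3.86 to 0.12. Another on chromosome 5, from 149947200 to 149979950, had -2.91 (SE 0.49, adjusted p = 0.0155). The highest was on chromosome 17, from 26911397 to 26917047, with 1.45 (SE 0.19, adjusted p = 0.0129), though the median over its 5 probes was -0.19. The next was on chromosome 15, from 92197603 to 92208534, with 1.23 (SE 0.14, adjusted p = 0.0128).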

How the data were processed

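Total RNA labelled with Cy3 was hybridised to 6 Agilent 1-colour arrays. The authors' deposited intensity values came from Agilent Feature Extraction 11.5.1.1, per the submitters' processing notes; the processed signal is background-subtracted, per the file headers. The deposited outlier, saturation and well-above-background columns are 0 or 1 flags, and 0 spots were saturated. The authors' deposited series table, on a log2 scale, ranked spots as the median signal does (Spearman correlation of 1) and was an alternative.

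The log2 processed signal was centred on each array's 75th percentile over 59305 non-control spots, without outlier spots. Of 55681 probes, 27656 matched a gene symbol through RefSeq accessions (GRCm38.p6); 28025 did not. A probe was kept where 1 or more groups had it well above background on each array (27258), and the probe with the highest mean stood for a gene (20869, with 8 missing values). One limma model (version 3.58.1, R 4.3.3) covered the 3 groups (3 residual and 2.21 prior degrees of freedom, two-sided). The steps were tested on simulated data. Arrays have no read depth; their number limits the precision.

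The text names Dmd and Utrn, and the 12 highest and 12 lowest called genes measured on all 4 arrays. The highest and lowest were taken only where the 2 groups did not overlap. Also named are 4 bounds and 2 regions per direction, and members of 46 lists of at most 20 genes. A few results under this rule are not reported here. Members and lists were chosen with earlier results of these data known. Other scalings, filters, probe choices and blocks were alternatives; normexp used the median signal, since the mean signal was not among the columns used here.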

Additional observations from a re-analysis of the deposited data

How the results depend on the processing

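Against 7529 calls, 3247 were made with the 4 MDX arrays alone and 3783 with spike-in scaling (81 higher, 3702 lower), where all genes shared 1 spread. Without a filter on dim probes there were 13640 of 36983. With the slide column as a block there were 0 in limma, where 8857 had an unadjusted p under 0.05 and 1 residual degree of freedom was left. Leaving out 1 array gave 48 (without MDX_tap replicate 2) to 7701 calls (without MDX_JJ101 replicate 1). Without either B10_tap array the count was 3247, since the lone array adds no spread. The share of higher among the calls was 55.3%, 74.99% with median centring, 76.9% without a filter, 62.4% over genes measured on all 4 MDX arrays, 2.14% with spike-in scaling, and between 46.7% and 56.7% with the other normalizations, probe rules and tests that used all 6 arrays and made calls. Of 182 called genes followed by name, 109 kept their call with 4 arrays. Leaving out an MDX_tap array kept 48 (replicate 1) or 2 (replicate 2), an MDX_JJ101 array 162 (replicate 1) or 103 (replicate 2), and 0 of them reversed. Leaving out 1 array cannot reverse a gene whose 2 groups do not overlap, so for such genes that 0 was fixed in advance. Reversals with spike-in scaling were Col4a2 (-0.0085), Itgam (-0.045) and Hsp90ab1 (-0.0025). With the median over probes they were Itgam (-0.42) and the chromosome 17 region (-0.19). Same-numbered replicates of MDX_tap and MDX_JJ101 deviated with a correlation of 0.16, B10_tap and MDX_JJ101 with -0.064, and B10_tap and MDX_tap with -0.031. The labels do not say that a number marks a pair, though same-numbered MDX_tap and MDX_JJ101 arrays share a slide column; with a replicate block 6517 passed. Signal over background limits the dim genes: 862 calls were above it in MDX_tap and on neither MDX_JJ101 array, and 114 in neither group.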
